A study of Mus musculus with 12 samples.

Results

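The genes described here are 10 transcription factors of the caudal progenitor zone and the primitive streak, namely T, Nkx1-2, Cdx1, Cdx2, Cdx4, Tbx6, Msgn1, Sp5, Evx1 and Mixl1, followed in the neural tube of mouse embryos over 3 stages. They were listed by name, and every probe set that the platform annotation assigns to 1 of these genes alone was taken, which gave 12 of 45037 probe sets. These 12 cover 9 of the 10 genes, out of 18193 genes measured in all, with 3 probe sets for Nkx1-2, 2 for Cdx2 and 1 for each of the others. T was not assigned a probe set in the annotation used and is not analysed here. Messenger RNA was measured on Affymetrix arrays in neural tubes dissected from untreated ICR (CD-1) embryos, an outbred stock, at gestation days 8.5, 9.0 and 9.5 (GD8.5, GD9.0 and GD9.5), counted from the morning of the vaginal plug. The labels give 4 biological replicates per stage without saying whether each is a litter or a pool, so p-values measure the spread between these samples. They give neither the sex of the embryos nor how far along the tail end the tube was dissected.

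As the body axis of the mouse extends, neuromesodermal progenitors at its caudal end give rise both to the spinal cord and to the paraxial mesoderm that forms the somites. Wnt and FGF signals keep these cells in place, and the Cdx homeobox factors, Nkx1-2 and Sp5 are among the transcription factors active there. Tbx6 and Msgn1 mark and promote the mesodermal branch, while Evx1 and Mixl1 are best known from the primitive streak during gastrulation. Neural tissue that matures forward of this zone switches such genes off and turns on neural progenitor genes.

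The sequence just upstream of the start was read for short motifs of factors that act in the zone. RefSeq promoter windows (GRCm38.p6) were given for 7 of the 9 measured genes. The 250 bases before the start were searched on both strands for 4 kinds of motif. Words bound by TCF/LEF, the DNA-binding partners of beta-catenin in Wnt signalling, were searched as CTTTG followed by any 2 bases that are each A or T. The T-box motif, one arm of the palindrome bound by this family, was AGGTGT. The Cdx motif was TTTATNG. The GC box of Sp factors was GGGCGG. The 4 windows below were chosen as Sp5 and Msgn1 hold the TCF/LEF words, Cdx4 holds a T-box motif, and Nkx1-2 is among the members that fell to under background. Capitals mark every match, and each window is written 5′ to 3′ on the strand of its gene.
Sp5: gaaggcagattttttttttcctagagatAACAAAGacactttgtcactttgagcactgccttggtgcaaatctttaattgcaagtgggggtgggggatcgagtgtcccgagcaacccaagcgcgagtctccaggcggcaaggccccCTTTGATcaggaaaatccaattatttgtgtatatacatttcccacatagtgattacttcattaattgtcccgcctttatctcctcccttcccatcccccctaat
Msgn1: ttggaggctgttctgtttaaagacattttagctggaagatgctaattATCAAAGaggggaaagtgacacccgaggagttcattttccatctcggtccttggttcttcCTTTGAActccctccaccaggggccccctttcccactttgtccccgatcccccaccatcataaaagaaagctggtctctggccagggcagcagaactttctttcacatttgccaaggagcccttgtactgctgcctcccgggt
Cdx4: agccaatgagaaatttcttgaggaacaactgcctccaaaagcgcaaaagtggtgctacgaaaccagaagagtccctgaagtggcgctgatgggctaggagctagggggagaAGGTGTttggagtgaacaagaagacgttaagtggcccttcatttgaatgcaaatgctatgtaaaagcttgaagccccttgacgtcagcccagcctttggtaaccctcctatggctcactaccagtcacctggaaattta
Nkx1-2: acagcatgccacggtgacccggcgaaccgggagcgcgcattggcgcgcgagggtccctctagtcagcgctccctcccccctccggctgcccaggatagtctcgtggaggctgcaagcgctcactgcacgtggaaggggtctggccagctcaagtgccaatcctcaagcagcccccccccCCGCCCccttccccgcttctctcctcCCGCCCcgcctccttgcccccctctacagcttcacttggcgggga

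The Sp5 window is chr2:70474673-70474922 on the plus strand, and its TCF/LEF matches begin 222 and 104 bases before the start. The Msgn1 window is chr12:11208949-11209198 on the minus strand, with matches that begin 203 and 143 bases before the start. The Cdx4 window is chrX:103321148-103321397 on the plus strand, with its T-box match 139 bases before the start. The Nkx1-2 window is chr7:132599638-132599887 on the minus strand and holds 2 GC boxes. No match to any of the 4 motifs was found in the Cdx2 window, and the Tbx6 window holds only a Cdx match. The Evx1 window, not shown, holds a T-box match and a Cdx match. TCF/LEF words stood in 2 of the 7 windows, against 14.84% of 32851 promoter windows of the same length. T-box motifs stood in 2 of 7 (11.83% of all windows), Cdx matches in 2 of 7 (9.81%) and GC boxes in 1 of 7 (32.74%). No binding was measured.

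Of the 12 arrays, 10 hold log2 values, while replicates 1 and 2 of GD8.5 hold intensities on a linear scale. Tests were run on the log2 arrays alone, 2 of GD8.5 and 4 of each later stage, and their number limits the precision. A level of 1.41 was taken as background, since 95% of 44 probe sets of olfactory receptor genes lay at or under it. A stage at or under it gives only a bound on a fold difference. For single genes, levels are compared between stages for 1 probe set and never between probe sets. Sums over marker lists are compared between stages within 1 list, not between lists, and weigh the brightest genes most. All 12 neural progenitor markers lay above background at every stage, and their summed linear level was 1305 to 1332 at GD8.5, 1776 to 1884 at GD9.0 and 2818 to 2928 at GD9.5. The 16 cardiac muscle markers summed to 1553 to 1608 at GD8.5, 193 to 205 at GD9.0 and 43.5 to 46.8 at GD9.5. A list of 15 endoderm and yolk sac markers summed to 2182 to 2217, 298 to 326 and 71.6 to 74.5 at the 3 stages in turn, while 9 erythroid markers summed to 2184 to 2217, 6462 to 6860 and 10208 to 10766. The 18S control probe sets ranged from 9.82 to 9.83 at GD8.5, from 8.65 to 9.05 at GD9.0 (log2) and from 10.2 to 10.4 at GD9.5. For the actin controls, the 3′ probe set exceeded the 5′ one, a sign of RNA length, by 0.70 to 0.72, 0.53 to 0.59 and 0.90 to 0.97. The part of these values in the results below was not tested.

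On the log2 arrays, Nkx1-2, Cdx4, Cdx2, Cdx1 and Sp5 fell between GD8.5 and GD9.0, and no member rose. The 2 linear GD8.5 arrays did not rank Sp5 above its GD9.0 arrays. Nkx1-2 and Cdx4, which stood well above background at GD8.5, were under it on every array of both later stages. Between GD9.0 and GD9.5 only Sp5 fell further, and Mixl1 passed the test in no comparison. In RNA from whole tissue, fewer cells of a type and less RNA per cell cannot be told apart. The plot of levels by array shows these patterns for each probe set.

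**Figure D1:**
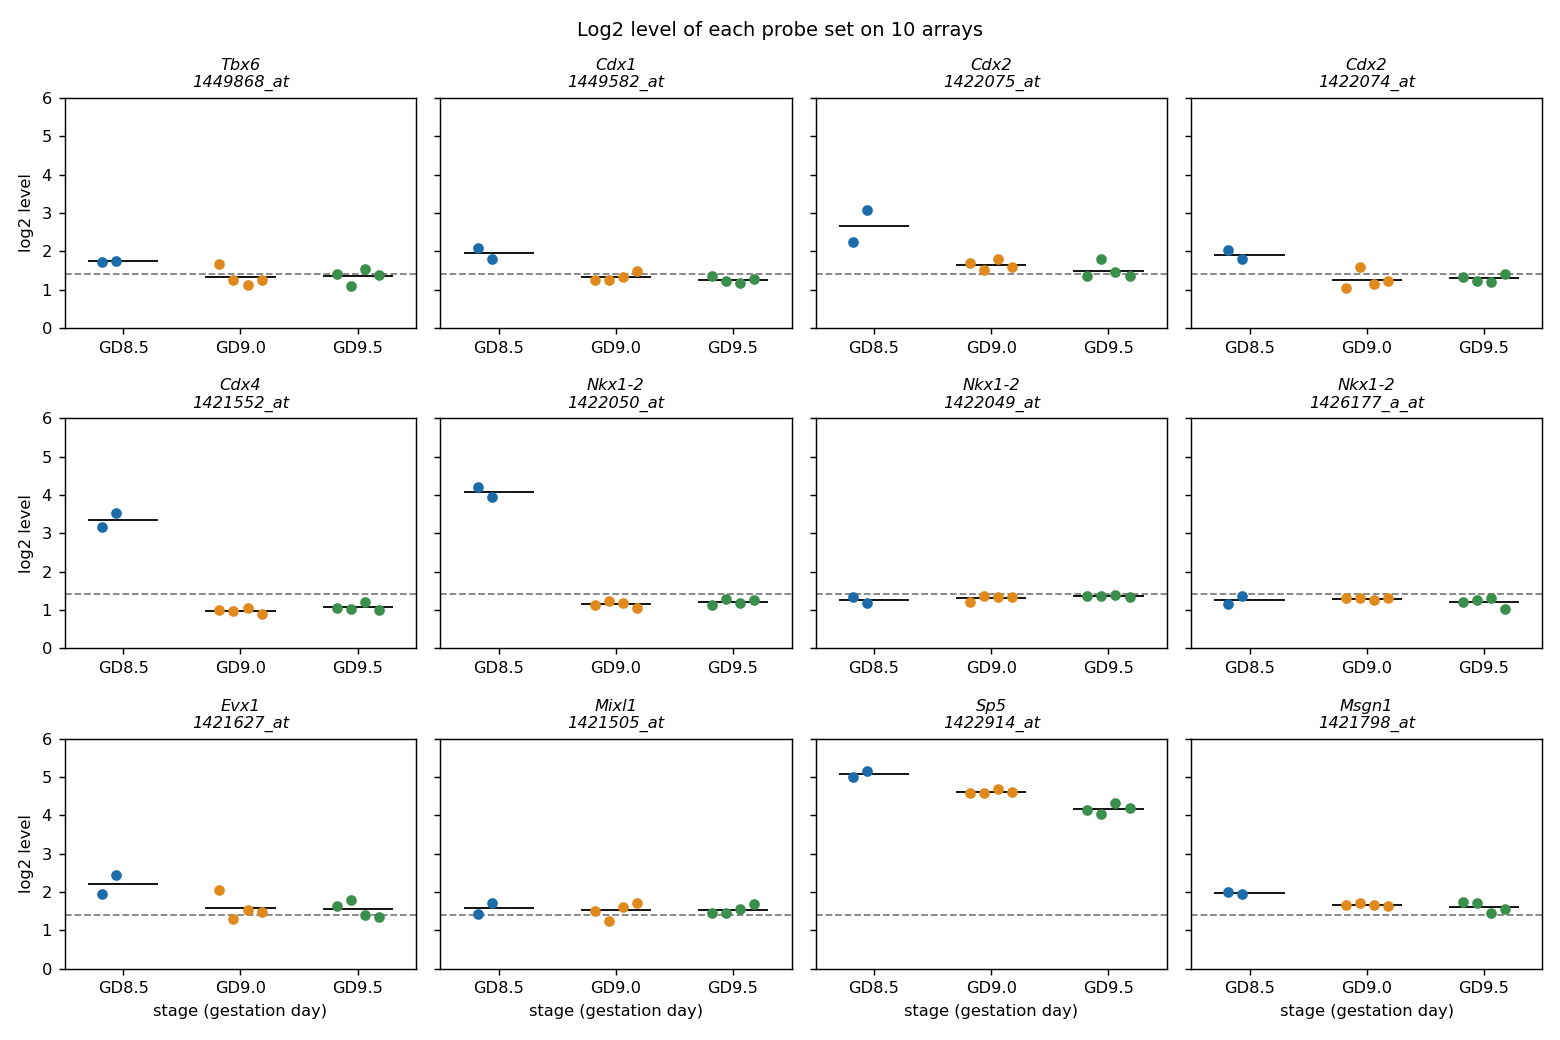
Log2 level (y axis) of the 12 probe sets by stage (x axis); each point is 1 array (2 at GD8.5, 4 at GD9.0, 4 at GD9.5), black bars are stage means and the dashed line is the background level of 1.41. Nkx1-2 (1422050_at) and Cdx4 stand clear of the line at GD8.5 alone, Sp5 steps down at each stage, and the other probe sets lie between 1.04 and 3.08.

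Of the 12 probe sets, 6 were called lower in GD9.0 tubes than in GD8.5 tubes and 0 higher, by limma with Benjamini-Hochberg adjustment at 0.05 over all probe sets. Over the whole array 3.68% of probe sets were called lower and 4.28% higher in this comparison. The median log2 change of the 12 was -0.54, against 0.004 over all probe sets. An unadjusted p under 0.05 in limma was found for 9 of the 12 and for 8781 of all 45037 probe sets. Of the 12, 10 had a negative change. The 2 with a positive one are the Nkx1-2 probe sets that stayed under background throughout.

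Nkx1-2, the NK homeobox factor of caudal neural progenitors, had log2 levels of 4.22 and 3.96 on the GD8.5 arrays by probe set 1422050_at. At GD9.0 they were 1.13, 1.24, 1.18 and 1.06, and at GD9.5 1.13, 1.30, 1.18 and 1.25. Both GD8.5 arrays lie far above all 8 later arrays, which are all under background. The level was at least 6.41-fold lower at GD9.0 (log2 change -2.93 ± 0.09 SE, adjusted p = 1.54e-09). The other two probe sets of the gene, 1422049_at and 1426177_a_at, ranged from 1.04 to 1.39 over the 10 arrays and were under background on each of them. They gave log2 changes of 0.04 ± 0.07 and 0.04 ± 0.09 SE, so the call for Nkx1-2 rests on 1 of 3 probe sets.

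Cdx4, the X-linked member of the caudal homeobox family that acts upstream of trunk Hox genes, had log2 levels of 3.17 and 3.54 at GD8.5. At GD9.0 the 4 arrays read 1.00, 0.98, 1.04 and 0.90, and at GD9.5 they read 1.04, 1.03, 1.20 and 0.99. As for Nkx1-2, both GD8.5 arrays lie above all 8 later ones, the later stages overlap with each other, and no later array reached background. Cdx4 was at least 3.86-fold lower at GD9.0 (-2.37 ± 0.10 SE, adjusted p = 2.27e-08).

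Cdx2, a family member needed for posterior axis growth and for the trophectoderm and gut, read 2.24 and 3.08 at GD8.5 by its brighter probe set 1422075_at. It read 1.69, 1.51, 1.81 and 1.58 at GD9.0 and 1.36, 1.81, 1.46 and 1.36 at GD9.5. The GD8.5 arrays differ by more than the whole spread of the later ones but lie above all of them. The level was 2.02-fold lower at GD9.0 (-1.02 ± 0.20 SE, adjusted p = 0.0063), and without GD8.5 replicate 4 the change was -0.60 with an adjusted p of 0.086. The second probe set, 1422074_at, read 1.04 to 1.59 at GD9.0 and 2.04 and 1.79 at GD8.5 (-0.66 ± 0.14 SE, adjusted p = 0.00932), so both probe sets of Cdx2 were called lower.

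Cdx1, a retinoic acid and Wnt target that patterns the vertebral column, read 2.09 and 1.79 at GD8.5. At GD9.0 it read 1.25, 1.24, 1.33 and 1.49, and at GD9.5 1.35, 1.22, 1.18 and 1.27. Both GD8.5 arrays lie above all later ones, the later stages overlap with each other, and the highest GD9.0 array is just above background. Cdx1 was at least 1.45-fold lower at GD9.0 (-0.62 ± 0.10 SE, adjusted p = 0.00208).

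Sp5, a zinc finger factor and a direct target of Wnt signalling, kept a level well above background at all stages. It read 5.01 and 5.17 at GD8.5, then 4.58, 4.58, 4.70 and 4.60 at GD9.0 and 4.14, 4.05, 4.32 and 4.21 at GD9.5. None of the 3 stages overlaps with another. Sp5 was 1.39-fold lower at GD9.0 (-0.48 ± 0.09 SE, adjusted p = 0.00444). This call was lost without GD8.5 replicate 4 (-0.40, adjusted p = 0.0836) and with all 12 arrays after log2 and quantile normalization (-0.20, adjusted p = 0.39).

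The mesodermal members and the streak factors averaged 1.58 (Mixl1) to 2.20 (Evx1) at GD8.5, not far above background, as did Cdx1 (1.94). None of Msgn1, Tbx6, Evx1 and Mixl1 passed the test between GD8.5 and GD9.0. Msgn1, a basic helix-loop-helix factor of presomitic mesoderm, read 1.67, 1.73, 1.65 and 1.64 at GD9.0, against 2.01 and 1.96 at GD8.5. These stages do not overlap, and the change of -0.31 ± 0.09 SE lay just outside the threshold (adjusted p = 0.0506). Over 19 alternative settings it was called in 7, with adjusted p between 0.0247 and 0.848, the last with all 12 arrays.

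Tbx6, the T-box factor that directs cells to paraxial mesoderm rather than neural fate, read 1.67, 1.24, 1.13 and 1.25 at GD9.0, where replicate 1 alone was above background, against 1.72 and 1.76 at GD8.5. The arrays of these stages do not overlap. The change was -0.42 ± 0.14 SE (adjusted p = 0.117). Over the 19 alternatives Tbx6 was called in 2, with adjusted p between 0.0161 (-0.53, without GD9.0 replicate 1) and 0.382 (-0.40, without GD8.5 replicate 4). Evx1, an even-skipped homeobox factor of the streak and of spinal interneurons, read 2.05, 1.31, 1.53 and 1.48 at GD9.0, against 1.96 and 2.44 at GD8.5 (-0.61 ± 0.20 SE, adjusted p = 0.0919). The stages overlap. Over the 19 alternatives Evx1 was called in 2, with adjusted p between 0.015 (-0.76, without GD9.0 replicate 1) and 0.562 (-0.37, without GD8.5 replicate 4).

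Mixl1, a paired-type homeobox factor of streak mesendoderm, read 1.44 and 1.72 at GD8.5. At GD9.0 it read 1.49, 1.26, 1.61 and 1.73, and at GD9.5 1.46, 1.44, 1.57 and 1.69. The stages overlap fully, and all values lie within about 0.3 of background. The changes were -0.06 ± 0.13 SE at GD9.0 against GD8.5 (95% interval from -0.34 to 0.22) and 0.02 ± 0.10 SE at GD9.5 against GD9.0.

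Between GD9.0 and GD9.5, 1 of the 12 probe sets was called lower and 0 higher, where 8.1% of all probe sets were called lower and 8.93% higher. The one called was Sp5, which was 1.35-fold lower at GD9.5 than at GD9.0 (-0.44 ± 0.07 SE, adjusted p = 0.00107). With all 12 arrays its change was -0.47 with an adjusted p of 0.066. The median log2 change of the 12 was -0.01, and of the other 11 probe sets 0 had an unadjusted p under 0.05 in limma. Of all 45037 probe sets, 12628 had one. Nkx1-2, Cdx4, Cdx1 and Tbx6 had stage means at or under background at both GD9.0 and GD9.5, so a further fall could not have been measured for them.

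Over the whole day from GD8.5 to GD9.5, 8 probe sets of 7 genes were called lower and 0 higher, against 8.96% and 10.4% of all probe sets. This comparison shares its arrays with the other two. Besides the 6 probe sets above, Evx1 (1.57-fold lower, -0.65 ± 0.20 SE, adjusted p = 0.0369) and Msgn1 (1.29-fold lower, -0.36 ± 0.09 SE, adjusted p = 0.0117) passed. Sp5 was 1.88-fold lower at GD9.5 than at GD8.5 (-0.91 ± 0.09 SE, adjusted p = 1.11e-05). The calls of Evx1 and Msgn1 were less steady than the others. Evx1 was not called without GD8.5 replicate 4 (-0.41, adjusted p = 0.358), GD9.5 replicate 1 (adjusted p = 0.0515), replicate 3 (0.0778) or replicate 4 (0.0835). Msgn1 was not called without GD8.5 replicate 3 (-0.34, adjusted p = 0.0951) or replicate 4 (-0.39, adjusted p = 0.0575), nor with 12 arrays (-0.13, adjusted p = 0.775). At GD9.5, Msgn1 read 1.74, 1.73, 1.45 and 1.57, Evx1 read 1.64, 1.80, 1.40 and 1.35, and Tbx6 read 1.40, 1.09, 1.52 and 1.38.

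The second interval was set against the first by the difference of the 2 changes. For 2 of the 12 probe sets it was called above 0, against 3.79% of all probe sets. It was 3.00 ± 0.14 SE for Nkx1-2 (adjusted p = 4.09e-07 in limma) and 2.46 ± 0.16 SE for Cdx4 (adjusted p = 2.82e-06). Both genes were under background from GD9.0 on, so a further fall could not have been measured. Their differences and calls thus largely restate the first changes of -2.93 and -2.37 and say nothing of the second interval. For Sp5 the difference was 0.04 ± 0.13 SE (95% interval from -0.25 to 0.33), so the 2 intervals differed by less than the error. For Cdx1 it was 0.54 ± 0.15 SE (adjusted p = 0.0549) and for Cdx2 0.87 ± 0.30 SE (adjusted p = 0.114).

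The 2 linear GD8.5 arrays are on a scale of their own, so each probe set was also ranked within its own array, as a percentile of all 45037 probe sets. Nkx1-2 (1422050_at) stood at percentiles of 12.2 to 30.7 on the 8 arrays of GD9.0 and GD9.5, against 78.8 and 75.5 on the linear and 75.0 and 73.6 on the log2 arrays of GD8.5. Cdx4 stood at 4.0 to 24.2 on the later arrays, against 72.3 and 75.4 (linear) and 67.6 and 70.6 (log2) at GD8.5. Both genes thus ranked low on every later array and high on all 4 of GD8.5.

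Cdx2 (1422075_at) reached at most 51.0 on the later arrays, against 70.0 and 68.6 on the linear GD8.5 arrays. Cdx1 reached at most 39.6, against 52.8 and 48.5, and Tbx6 at most 46.4, against 55.0 and 59.2. In all, 5 probe sets ranked higher on both linear GD8.5 arrays than on any later array, and 8 did so on both log2 GD8.5 arrays, a count that includes those 5. No such count was made over all probe sets, so neither number can be set against a share of the array. Sp5 was not among the 5, since it stood at 77.5 and 77.0 on the linear arrays of GD8.5, at 77.6 to 78.0 at GD9.0 and at 73.7 to 75.5 at GD9.5. On the log2 arrays of GD8.5 it stood at 80.4 and 81.6. Msgn1 stood at 39.4 to 49.2 on the later arrays, against 59.0 and 17.2 on the linear ones, which thus lie on either side. Mixl1 stood at 11.0 and 5.1 on the linear arrays, under all 10 log2 arrays. The log2 arrays of GD8.5 gave it 37.3 and 47.4. The second Cdx2 probe set ranged over 11.4 to 43.4 later, against 33.2 and 21.1 on the linear arrays, which lie inside that range. It stood at 55.1 and 49.5 on the log2 arrays of GD8.5. The 2 kinds of array thus ranked these dim probe sets apart at the same stage, and also Sp5, which is not dim. Both linear GD8.5 arrays ranked Sp5 under every GD9.0 array, so they showed no fall of it by GD9.0. This limits how far ranks can be compared between the 2 kinds of array. Evx1 reached at most 55.2 later, against 55.1 and 57.5.

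**Figure D2:**
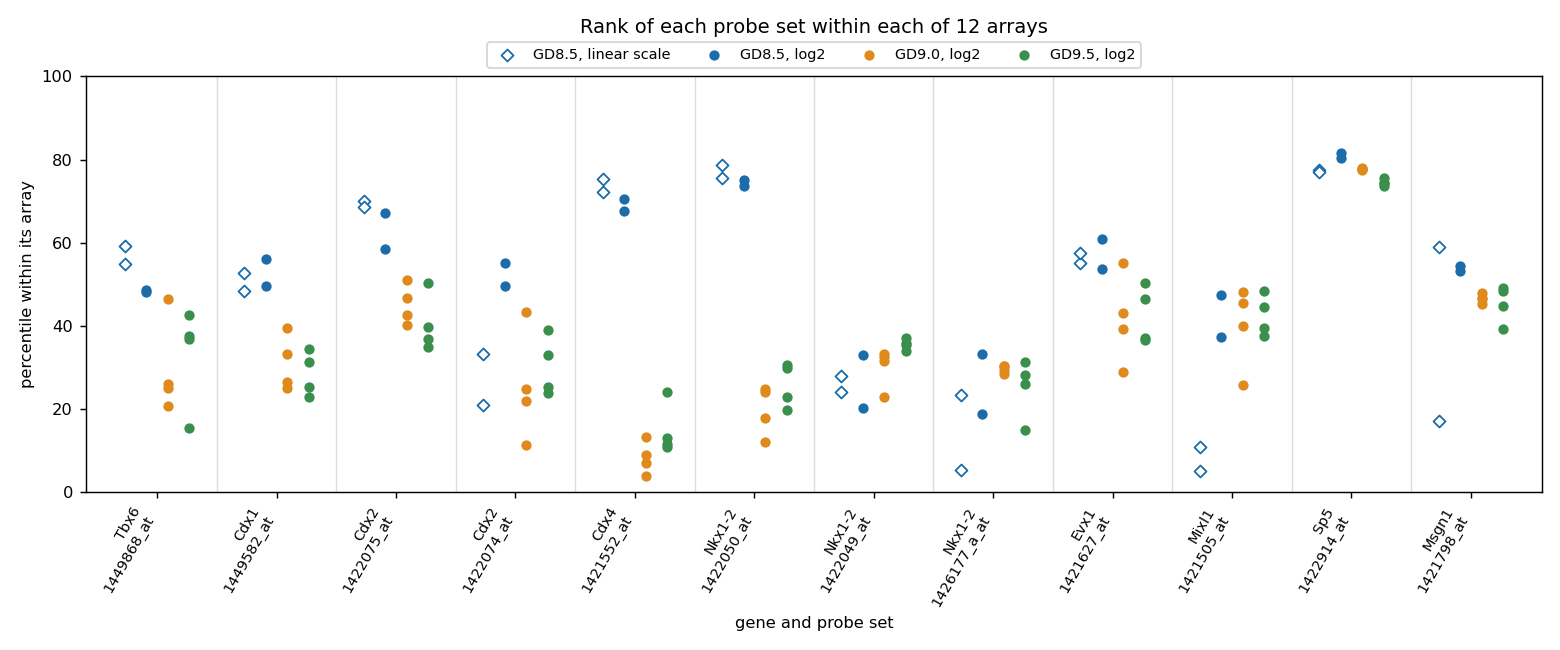
Percentile of each of the 12 probe sets within its array (y axis, 0 to 100) for all 12 arrays, by gene and probe set (x axis); diamonds are the 2 linear GD8.5 arrays and filled circles the 10 log2 arrays, coloured by stage. Nkx1-2 (1422050_at), Cdx4, Cdx2 (1422075_at), Cdx1 and Tbx6 rank higher on all 4 GD8.5 arrays than on any later array.

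Other genes of the caudal zone were read from lists, each gene by its brightest probe set. Of 17 measured posterior Wnt and FGF signalling genes, 4 fell and 1 rose by GD9.0, where 5.64% of 18193 genes were called lower and 5.45% higher. The median log2 change was -0.06, against -0.002 over all genes. Cyp26a1, the enzyme that clears retinoic acid from the tail end, fell 6.73-fold (log2 levels of 2.39 at GD9.0 and 5.14 at GD8.5, change -2.75 ± 0.14 SE). Dkk1, a secreted Wnt antagonist, fell by 0.81 on the log2 scale, and Lef1, a TCF/LEF factor, fell by 0.43 (1 of 2 probe sets called for each). Rspo3, a Wnt activator also made in the roof plate, rose by 0.85 ± 0.07 SE (1 of 2 probe sets) and is counted in the segmentation list too. The posterior ligands Wnt3a (0.05) and Fgf8 (-0.06) and the Wnt target Axin2 (-0.04) did not pass in this comparison.

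Of 17 presomitic mesoderm and segmentation genes, 5 fell and 5 rose by GD9.0, with a median of -0.13. Aldh1a2, which makes retinoic acid in paraxial mesoderm, was at least 5.99-fold lower (-2.59 ± 0.13 SE). Foxc2, a forkhead factor of paraxial mesoderm, fell 3.50-fold (-1.81 ± 0.11), and Meox1, a homeobox factor of early somites, fell 2.14-fold (-1.10 ± 0.14). The Notch feedback gene Nrarp rose 2.36-fold (1.24 ± 0.07, 2 of 2 probe sets). Of 15 streak, node and notochord genes, 6 were called lower and 0 higher, with a median of -0.22. One of the 6, Lefty2, was under background at both stages (1.00 at GD9.0 and 1.27 at GD8.5), so its fall is not measured, and 3 were called without GD8.5 replicate 3. Tdgf1, a Nodal co-receptor, was at least 1.73-fold lower (-1.12 ± 0.13), Foxa2, a factor of node, floor plate and endoderm, fell 2.09-fold (-1.07 ± 0.10), and follistatin, Fst, fell 1.82-fold (-0.86 ± 0.10, 2 of 2 probe sets). Of 16 trunk and posterior Hox genes, which Cdx factors regulate, 7 fell and 0 rose, led by Hoxc8 at an at least 4.75-fold lower level (-2.80 ± 0.13). Hoxc8 averaged 3.65 at GD8.5, while the others that fell averaged 1.87 (Hoxa10) to 2.24 (Hoxa9), close to background. Hoxb6, Hoxd9, Hoxb9 and Hoxa10 also gave only bounds.

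**Figure D3:**
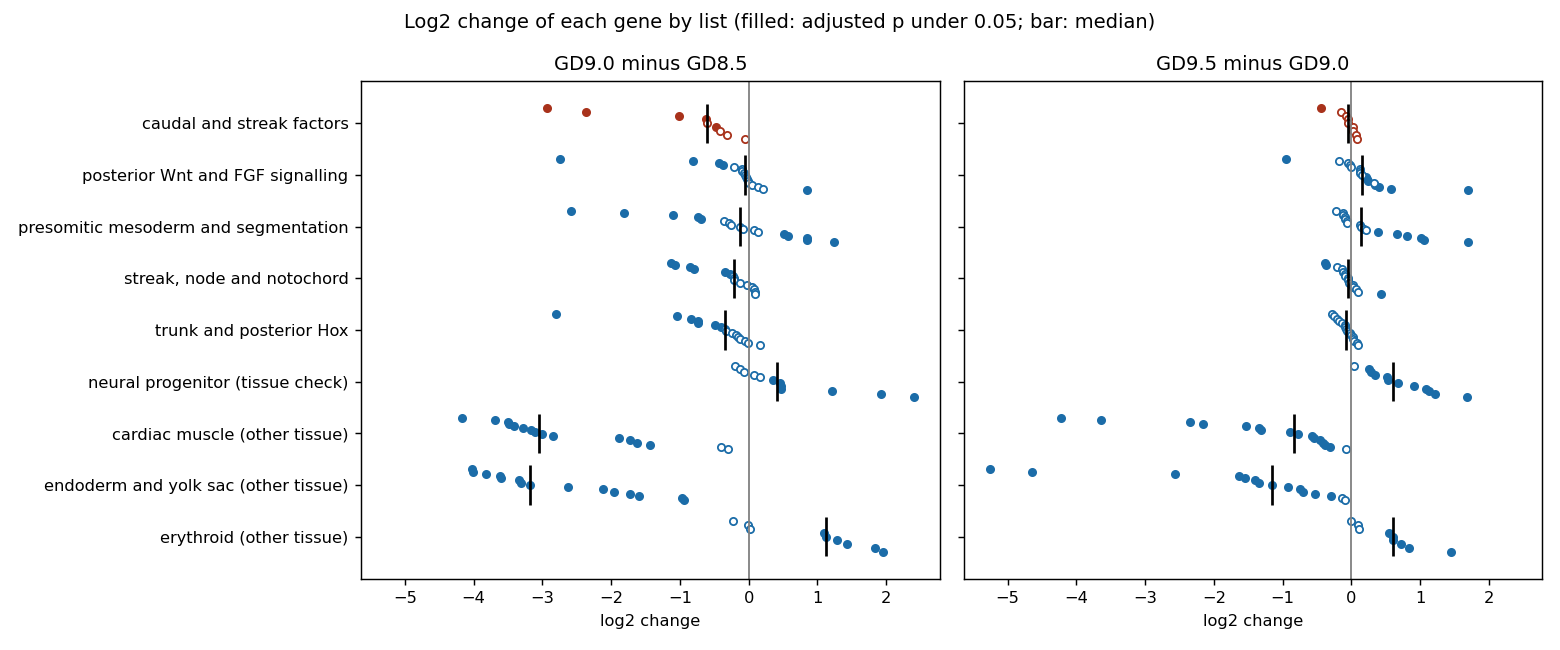
Log2 change (x axis) of each gene by list (y axis) at GD9.0 minus GD8.5 (left) and GD9.5 minus GD9.0 (right), by the brightest probe set; red points are the 9 measured caudal and streak factors, filled points have an adjusted p under 0.05 and black bars are medians. On the left all 9 caudal factors lie under 0, and 5 are filled; on the right 1 is filled, Sp5, and the others lie near 0.

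The other tissues' markers moved beside these genes. By GD9.0 the cardiac list had 14 of 16 genes lower (median -3.05) and the endoderm list 15 of 15 (median -3.18), while 7 of 12 neural progenitor genes and 6 of 9 erythroid genes rose (medians 0.41 and 1.13). Relative to GD9.0, 15 of the cardiac genes were called lower by GD9.5, with a list median of -0.83. They include Smpx, which was under background at both stages. Of the endoderm genes 13 were called lower, with a list median of -1.16. Of the 12 caudal probe sets 1 was called lower, against 8.1% of all probe sets. Most of the 12 had means at or under background at both GD9.0 and GD9.5, so a further fall could not have been measured for them. The caudal count thus cannot be set against the gene counts of the other tissues. The number above background was 16, 15 and 9 of the 16 cardiac genes over the 3 stages, and 15, 14 and 11 of the 15 endoderm genes. Myl2, Myh6 and Tnnt2 of the heart and Apob and Amn of the yolk sac were at or under it at GD9.5. The part of these tissues in the changes of the caudal genes was not tested.

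Between GD9.0 and GD9.5, in the Wnt and FGF list 7 of 17 genes rose and 1 fell, with a median of 0.15, where 12.6% of all genes were called higher and 8.75% lower. Rspo3 rose 3.24-fold by 1 of its 2 probe sets (1.70 ± 0.06 SE, the other at 0.29), Fgf17, an FGF ligand of the midbrain-hindbrain border and tail, rose 1.49-fold (0.58 ± 0.08, 1 of 2 probe sets), and Dkk1 fell 1.94-fold. Wnt3a (0.35 ± 0.09 SE, adjusted p = 0.0141 in limma) and Axin2 (0.22 ± 0.06, adjusted p = 0.0244) were among those that rose, while Fgf8 (-0.004) did not pass. In the segmentation list 6 of 17 rose and 0 fell, with Nrarp at 1.06 ± 0.06. Of the 15 streak and node genes 2 fell, Foxa2 by 0.38 and Fst by 0.36, and Bmp4 rose by 0.43 on the log2 scale. Of the 16 Hox genes, each read by its brightest probe set, 0 passed in limma and 3 had an unadjusted p under 0.05. Such a p was found for 12628 of all 45037 probe sets, a count not limited to the brightest per gene. Of the 16 Hox genes, 9 had a mean at or under background at GD9.0 and 11 at GD9.5. A further fall could not have been measured for the 9.

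Over the whole day the Wnt and FGF list had 3 lower and 5 higher genes, the segmentation list 6 and 5, the streak and node list 6 and 0, and the Hox list 9 and 0. Lefty2 in the streak list and Ripply2 in the segmentation list are among those lower although under background at both stages. Of all genes, 11.5% were called lower and 14.1% higher. Cyp26a1 was 5.34-fold lower at GD9.5 than at GD8.5 (-2.42 ± 0.14 SE), with a level of 2.72 at GD9.5.

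The genes whose profile over the 10 arrays was most like the mean profile of the 9 measured members were found by the root mean square difference of log2 levels, each taken relative to the gene's own GD8.5 mean. That mean profile stood at -0.98 at GD9.0 and -1.04 at GD9.5. The 5 nearest were Fn1, the matrix protein fibronectin (0.08), Bnip3, a hypoxia-responsive mitochondrial protein (0.10), Serpinb6b, a serine protease inhibitor (0.10), Rrad, a Ras-related GTPase (0.11), and Igf2, a fetal growth factor (0.11). Fn1 averaged 8.09, 7.17 and 7.03 at GD8.5, GD9.0 and GD9.5. Bnip3 (8.8, 7.9 and 7.6) and Igf2 (8.9, 7.9 and 7.8) also stayed well above background. Rrad averaged 2.29, then 1.36 and 1.31, under background, so its fall is only a bound. Serpinb6b averaged 2.57, then 1.51 and 1.51, close to background. The members themselves lay farther from their own mean, from 0.21 for Cdx2 to 1.70 for Nkx1-2, since the mean joins 2 large falls with 7 smaller changes.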

How the data were processed

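Neural tubes of 3 stages were profiled on 12 arrays. The log2 values of 10 arrays were deposited already normalized across arrays (sorted values differed by at most 0.272), and the deposited linear intensity values of GD8.5 replicates 1 and 2 were used as ranks within the array and in 1 alternative. Per the submitters' processing notes the authors used RMA, GCRMA and version 1.2.1 of Affymetrix Expression Console, with no word on which arrays each was used for. Of 45101 probe sets, 64 controls were left out, and 34945 of the rest named 1 gene. Gene names came from the platform annotation, updated by gene ID to RefSeq.

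All 45037 probe sets entered 1 fit of stage means (limma 3.58.1, R 4.3.3) with 7 residual degrees of freedom. Moderated tests were adjusted by Benjamini-Hochberg over all probe sets and called at 0.05. The script was tested on simulated data. Members, lists, background level and tests were chosen with earlier results of these data known. From the lists, up to 3 largest falls and 2 largest rises among called genes were named per comparison. Wnt3a, Fgf8 and Axin2, which did not pass between GD8.5 and GD9.0, were chosen after their values were seen. No gene could be set against T. The labels do not say whether equal replicate numbers share a litter or batch. Deviations of same-numbered arrays of different stages correlated at -0.044 to 0.091 across probe sets, and those of other-numbered arrays at -0.102 to 0.12. Such values show no pairing but cannot exclude a shared litter or batch. Alternatives were array scaling, a filter on dim probe sets, 1 value per gene, other variance models, a replicate block, 12 arrays and leaving out each array.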

Additional observations from a re-analysis of the deposited data

How the results depend on the processing

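Nkx1-2, Cdx4 and Cdx1 were called lower at GD9.0 against GD8.5 in all 19 alternatives, Cdx2 in 18 and Sp5 in 17. Of 684 single-gene values, 651 kept their side of the threshold, 22 gained a call, 11 lost one and 0 called values changed sign; 26 values that were called in neither setting changed sign. Averaging the 3 Nkx1-2 probe sets gave -0.95 in place of -2.93, since 2 of the 3 are under background. With 12 arrays after log2 and quantile normalization, 0 member probe sets were called between GD9.0 and GD9.5, against 1 (Sp5). The difference between the intervals was called for 4 members with the mean of probe sets per gene and for 4 with an intensity trend and robust prior, against 2. With the replicate block the counts were 7, 1, 8 and 2 for the 3 comparisons and the difference, so the numbers shared by the labels moved no count by over 1.5 times.

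Leaving out 1 array gave 4 to 8 called probe sets for GD9.0 against GD8.5, 1 to 1 for GD9.5 against GD9.0, 6 to 9 for GD9.5 against GD8.5 and 2 to 3 for the difference; a GD8.5 stage of 1 array is assumed to vary like the others. The list counts were put through the same settings after the data were seen. With 12 arrays the Wnt and FGF list had 3 called genes in each interval, against 5 and 8, and the neural list 4 and 7, against 7 and 11. Without 1 array the Wnt and FGF list ranged over 3 to 5, 5 to 8 and 5 to 8 for the first interval, the second and the whole day, the streak list over 3 to 6 in the first and in the whole day, and the Hox list over 0 to 1 in the second. The low ends of the Wnt and FGF list came without GD8.5 replicate 3 or, in the second interval, GD9.5 replicate 4; those of the streak list came without GD8.5 replicate 3, or GD9.5 replicates 1 or 4 for the whole day; the 1 Hox gene came without GD9.0 replicate 2. For the whole day the streak list had 3 called genes after median centring and 3 among probe sets above background, where 10 of its genes are tested, against 6. The cause of the other shifts was not tested. Stage means at or under background turn the folds of Nkx1-2, Cdx4 and Cdx1 into bounds. Scanner files were not used, so no other background correction was run.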
